A study of Mus musculus with 12 samples.

Results

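The naive pluripotency network described here is a set of 34 genes that mouse embryonic stem (ES) cells express in their ground state. The genes were listed by symbol and looked up in the annotation of the array. Of the 34, 33 had a probe set and *Tdh* was not analysed here. All 33 passed the filter on low values, a mean over the arrays of at least 0.1 of the array mean, since the lowest of them had 0.511. They are 33 of the 15309 genes that passed this filter and of the 19938 genes with a named probe set. By role they comprised 14 core transcription factors, 4 genes of the LIF receptor and STAT3 pathway, 12 peripheral naive genes and 3 chromatin partners.

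The study asked what the histone demethylase KDM6A, which removes methylation from lysine 27 of histone H3, does for gene expression in female and male ES cells. PGK12.1 is a female line from blastocysts of a 129 mother and a (129 X PGK)F1 father, and WD44 is a male line from BL6 blastocysts, so that sex and strain cannot be told apart and each sex stands on 1 line. In every experiment *Kdm6a* RNAi (3 pooled Stealth siRNAs) was paired with a negative control siRNA treatment of the same cells, and each treatment gave 1 array. PGK12.1 had 4 such experiments and WD44 had 2. PGK12.1 experiments 1 and 2 were double RNAi, with 100 pmol of siRNA for 48 h followed by 400 pmol for another 24 h. The remaining 2 PGK12.1 experiments (3 and 4) and those of WD44 were single RNAi, with 100 pmol for 48 h. All cells were undifferentiated, were kept in medium with LIF at 1000 U/ml and had been grown on MEF feeders that were depleted on gelatin before transfection. Values are RMA values on the log2 scale, and a change is the difference between the 2 arrays of an experiment, *Kdm6a* RNAi minus control.

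ES cells in the naive state resemble the epiblast of the blastocyst. POU5F1, SOX2 and NANOG bind together at enhancers and keep this state going, with KLF, ESRRB, TBX3 and TFCP2L1 as ancillary factors. Some of these ancillary factors are kept active by LIF, acting through STAT3. Peripheral genes such as *Zfp42* and *Dppa3* mark the state, and cells that lack either still self-renew. When cells leave the naive state towards the primed epiblast, *Klf4*, *Esrrb*, *Zfp42* and *Dppa3* are shut off early, while *Pou5f1* and *Sox2* stay on for longer.

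*Kdm6a* itself, as a check of the labels, had log2 values of 9.37, 9.57, 10.03 and 11.86 in the PGK12.1 controls and of 8.10, 8.07, 8.61 and 10.90 after RNAi. It fell by 1.29 (95% interval -1.46 to -1.11, limma adjusted p = 0.000293). In WD44 its values were 11.29 in both controls and 10.35 and 10.37 after RNAi, a change of -0.93 with an adjusted p of 0.130. The arrays were on different scales, with medians from 6.15 to 6.48 in PGK12.1 experiments 1 to 3 and from 8.03 to 8.21 in PGK12.1 experiment 4 and WD44, so the changes were taken within experiments. Of the markers by which ES cells are known, *Pou5f1*, *Sox2*, *Nanog*, *Esrrb*, *Dppa5a*, *Utf1* and *Fbxo15* lay above the array mean on all 12 arrays. *Zfp42* did so on all 8 PGK12.1 arrays but on none of the 4 WD44 arrays, where it had 0.628 to 0.752 of the array mean.

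In PGK12.1 the core of the network and its periphery differed in what passed the test. None of the 14 core factors was called at an adjusted p under 0.05, whereas 4 of the 12 peripheral naive genes were. The core factor *Nr0b1* was close (limma adjusted p = 0.0539) and was called under some alternative settings. *Dppa3*, *Utf1* and *Tcl1* fell by 0.31, 0.22 and 0.17 on the log2 scale (changes of -19.4%, -14.3% and -11.3% in expression), and *Jam2* rose by 0.20. Of the 33 genes, 3 were called lower and 1 higher, against 2.10% and 3.71% of all genes tested. No LIF pathway gene and no chromatin partner was called.

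The promoters of 2 of the called genes, *Utf1* and *Tcl1*, are shown beside those of *Nanog* and *Pou5f1*, core factors whose fitted changes were -0.02 and -0.01. The sequences are the 250 bases before the transcription start in RefSeq (GRCm38.p6), written 5′ to 3′ on the strand of the gene, and 21 of the 33 genes had such a window. Capitals mark matches on either strand to the GC box (GGGCGG), the octamer core (ATGCAAA) and the SOX core (CATTGT), and in *Nanog* also the single base that separates the last 2.

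Utf1, chr7:139943606-139943855, plus strand: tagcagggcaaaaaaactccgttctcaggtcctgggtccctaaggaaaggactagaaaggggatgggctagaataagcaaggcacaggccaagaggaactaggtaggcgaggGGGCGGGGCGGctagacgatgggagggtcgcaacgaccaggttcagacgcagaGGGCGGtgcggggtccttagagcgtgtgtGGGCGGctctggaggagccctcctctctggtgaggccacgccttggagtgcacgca

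Tcl1, chr12:105222738-105222987, minus strand: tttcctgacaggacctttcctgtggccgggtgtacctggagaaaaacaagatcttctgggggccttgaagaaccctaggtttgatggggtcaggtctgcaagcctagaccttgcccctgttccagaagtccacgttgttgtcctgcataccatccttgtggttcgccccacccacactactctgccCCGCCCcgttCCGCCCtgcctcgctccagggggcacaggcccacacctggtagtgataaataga

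Nanog, chr6:122707239-122707488, plus strand: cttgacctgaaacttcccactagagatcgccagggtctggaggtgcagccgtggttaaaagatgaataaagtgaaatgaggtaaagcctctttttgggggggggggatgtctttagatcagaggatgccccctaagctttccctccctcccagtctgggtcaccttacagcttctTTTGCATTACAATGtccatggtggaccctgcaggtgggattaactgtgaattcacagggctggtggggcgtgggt

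Pou5f1, chr17:35505782-35506031, plus strand: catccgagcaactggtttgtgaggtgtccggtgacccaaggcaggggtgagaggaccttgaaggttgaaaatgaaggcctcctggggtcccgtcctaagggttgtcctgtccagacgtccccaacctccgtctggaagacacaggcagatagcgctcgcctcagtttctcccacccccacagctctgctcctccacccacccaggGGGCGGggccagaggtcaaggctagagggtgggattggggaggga

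The *Utf1* window held 4 GC boxes, of which those at 138 and 133 bases before the start share a base, and *Tcl1* held 2, at 64 and 54 bases. *Pou5f1* held 1 GC box. In *Nanog* the octamer core and the SOX core lie next to each other between 75 and 62 bases before the start and form a SOX-octamer composite (the SOX core, any base and ATGC), which only 0.0578% of 32851 windows of this length contain. A GC box was present in 32.7% of all windows and in 14 of the 21 windows of the network. The octamer core was found in *Nanog*, *Sox2* and *Zfp42* (4.12% of all windows), and the SOX core in *Nanog* and *Lin28a* (10.7%). Sites of the letters TCAAGGTCA (ESRRB, 0.387% of all windows) and TTCCNGGAA (STAT, 0.913%) were in none of the 21 windows. CCACACCC (KLF, 3.20%) was in *Zfp42*, overlapping a GC box, and TATAAA was in *Nr0b1*, *Nr5a2*, *Tfcp2l1* and *Zfp57* (12.4% of all windows). The windows of *Utf1*, *Tcl1*, *Nanog* and *Pou5f1* held 14, 7, 3 and 8 CpG dinucleotides, beside a median of 14 in the 21 windows and of 6 in all windows. A GC box was shared by both called genes, *Pou5f1* and most other windows of the network. Neither called gene held an octamer or SOX core in its window, and nor did *Pou5f1* and most other windows. Neither trait thus set the called genes apart.

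Among the peripheral genes, *Dppa3* (also called *Stella*), which encodes a maternal factor that protects DNA methylation in the early embryo, had log2 values of 6.38, 6.69, 8.80 and 9.89 in the PGK12.1 controls of experiments 1 to 4. After *Kdm6a* RNAi these were 6.29, 6.35, 8.28 and 9.59. Each of the 4 experiments lay below its control, with changes of -0.08, -0.34, -0.52 and -0.30. Here and for the genes that follow, the steps of scale between experiments are wider than the changes, so that controls and treated arrays overlap as groups and differ only within experiments. The fitted change was -0.31 (95% interval -0.46 to -0.16, limma adjusted p = 0.0281). *Dppa3* has 2 probe sets annotated to the same transcripts, and they differed in experiment 1, at 0.10 and -0.27. In experiments 2 to 4 the first gave -0.19, -0.46 and -0.29 and the second -0.49, -0.58 and -0.31. The call was kept with the brighter probe set alone, which is the second, with the larger decreases. The first, which rose in experiment 1, was not fitted by itself. Its level was low in experiments 1 and 2, at 0.227 and 0.276 of the array mean, and higher in experiments 3 and 4, at 0.784 and 0.775.

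*Utf1*, a chromatin-bound cofactor found in undifferentiated cells, had control values of 11.76, 11.80, 12.41 and 13.43. The values after RNAi were 11.48, 11.56, 12.13 and 13.34. The change was -0.24 to -0.28 in experiments 1 to 3 and -0.09 in experiment 4, and the fitted change was -0.22 (95% interval -0.33 to -0.12, limma adjusted p = 0.0248). *Tcl1*, a coactivator of AKT kinase that sustains ES cell proliferation, had control values of 9.77, 9.77, 10.59 and 12.59 and values of 9.60, 9.62, 10.45 and 12.36 after RNAi. Its changes were the most even of the 3 decreases, between -0.14 and -0.23, with a fitted change of -0.17 (95% interval -0.27 to -0.08, limma adjusted p = 0.0423).

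*Jam2*, a junctional adhesion molecule at the surface of undifferentiated cells, was the only member called higher. Its control values were 10.58, 10.66, 11.16 and 12.85, and those after RNAi were 10.79, 10.81, 11.37 and 13.08. All 4 experiments lay between 0.15 and 0.23, with a fitted change of 0.20 (95% interval 0.11 to 0.29, limma adjusted p = 0.0248).

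**Figure D1:**
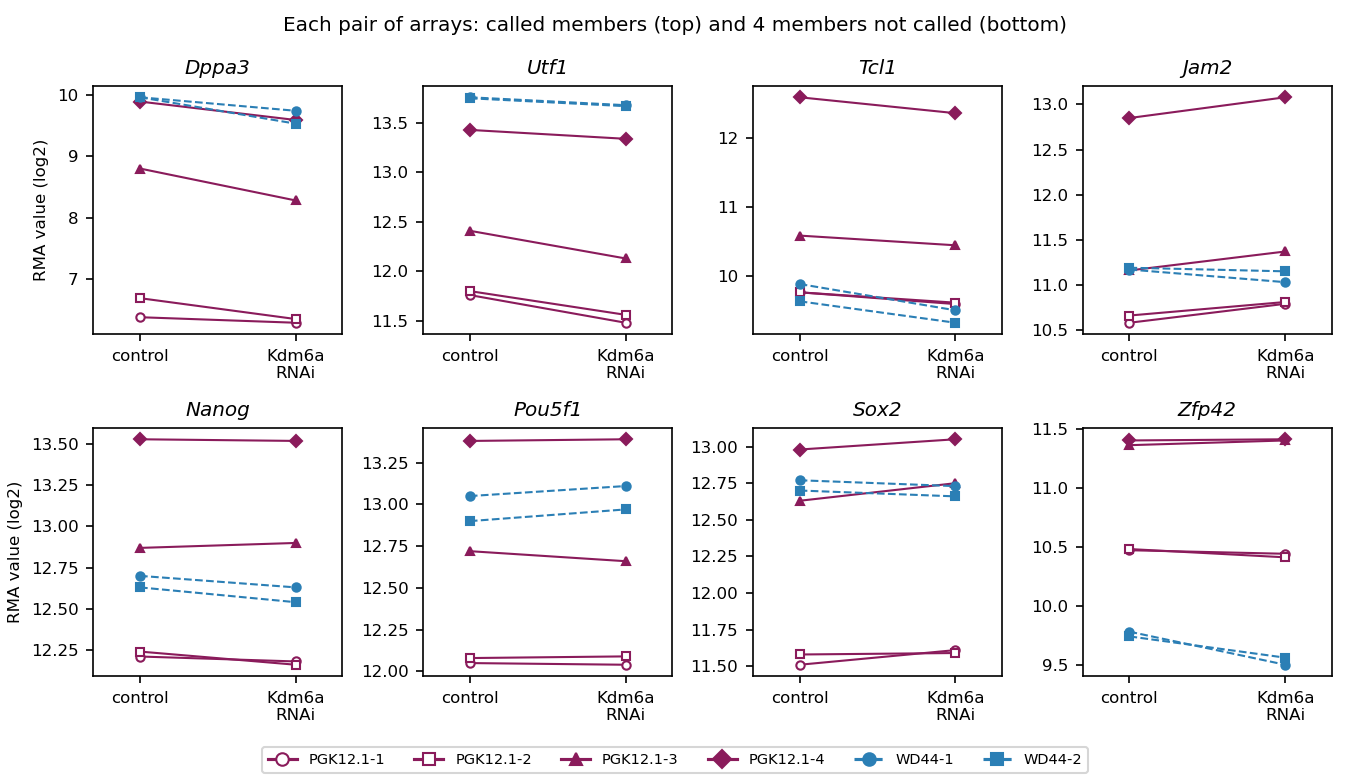
RMA values (log2) on the control array and the *Kdm6a* RNAi array of each experiment, joined by a line, for the 4 called members (top) and 4 that were not called (bottom). Open symbols are double RNAi, dashed lines are WD44, and each panel has its own y axis. The PGK12.1 lines slope down for *Dppa3*, *Utf1* and *Tcl1* and up for *Jam2*, while the distance between experiments reflects the scales of the arrays.

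These 4 calls lie near the threshold, and most did not last when 1 experiment was left out. Without PGK12.1 experiment 1 only *Dppa3* (-0.39, adjusted p = 0.0185) stayed called of the 4, without experiment 4 only *Utf1* (-0.27, adjusted p = 0.0257), and without experiment 2 or 3 none of them. In these fits *Tcl1* was between -0.18 and -0.15 (adjusted p 0.0850 to 0.113) and *Jam2* between 0.19 and 0.22 (adjusted p 0.0657 to 0.0755). The direction of the 4 did not turn in any alternative run.

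Of the other peripheral genes, *Lin28a*, which encodes an RNA-binding protein that blocks processing of let-7 miRNAs, was just outside the threshold. Its control values in PGK12.1 were 9.41, 9.40, 10.16 and 11.24 and those after RNAi 9.09, 9.10, 9.97 and 11.15, so that each lay below its control, with changes of -0.32 to -0.09. The fitted change was -0.22 (95% interval -0.35 to -0.10, limma adjusted p = 0.0515). *Fbxo15*, an F-box protein gene that is a target of POU5F1 and SOX2, was below its control in the 4 experiments, with changes of -0.15 to -0.04 (fitted change -0.11, adjusted p = 0.164). *Zfp42* (also called *Rex1*), the zinc finger gene most used as a reporter of the naive state, had control values of 10.47, 10.48, 11.36 and 11.40 and values of 10.44, 10.41, 11.40 and 11.41 after RNAi. Its fitted change was -0.01 (95% interval -0.11 to 0.08, adjusted p = 0.898). *Dppa2* and *Dppa4*, which encode a pair of DNA-binding partners at developmental promoters, changed by 0.02 and 0.09 (adjusted p = 0.808 and 0.429), and *Dppa5a*, an RNA-binding protein gene, by 0.04 (adjusted p = 0.714). The surface proteins *Pecam1* and *Cd9* stood at -0.05 and 0.02 (adjusted p = 0.606 and 0.925).

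The core trio was close to its controls in every PGK12.1 experiment. *Nanog* had control values of 12.21, 12.24, 12.87 and 13.53 and values of 12.18, 12.16, 12.90 and 13.52 after RNAi. The fitted change was -0.02 (95% interval -0.12 to 0.07, limma adjusted p = 0.797). *Pou5f1* (also called *Oct4*) had 12.05, 12.08, 12.72 and 13.38 in the controls and 12.04, 12.09, 12.66 and 13.39 after RNAi, with a fitted change of -0.01 (95% interval -0.10 to 0.08, adjusted p = 0.891). *Sox2* had 11.51, 11.58, 12.63 and 12.98 in the controls and 11.61, 11.59, 12.75 and 13.05 after RNAi, and a fitted change of 0.08 (95% interval -0.02 to 0.17, adjusted p = 0.327). The intervals of these 3 genes together span -0.12 to 0.17.

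The ancillary factors were similar. *Klf4*, a KLF factor downstream of STAT3, had control values of 10.14, 9.99, 10.19 and 11.26 and values of 10.02, 10.03, 10.11 and 11.28 after RNAi, and a fitted change of -0.03 (95% interval -0.14 to 0.07, adjusted p = 0.695). *Esrrb*, an orphan nuclear receptor gene activated by NANOG, had 10.72, 10.70, 11.74 and 12.83 in the controls and 10.70, 10.62, 11.74 and 12.80 after RNAi, with a fitted change of -0.03 (95% interval -0.13 to 0.06, adjusted p = 0.702). The fitted changes of *Klf2*, *Tbx3*, *Tfcp2l1*, *Prdm14*, *Nr5a2* and *Sall4*, all transcriptional regulators, ran from -0.04 for *Tbx3* to 0.02 for *Klf2*. *Klf5*, the third KLF factor of the network, was above its control by 0.05 to 0.18 (fitted change 0.11, adjusted p = 0.179). *Gbx2*, a homeobox gene induced by STAT3, was above its control by 0.08 to 0.13 in experiments 1 to 3 and by 0.31 in experiment 4 (fitted change 0.15, adjusted p = 0.121).

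The core factor nearest to a call was *Nr0b1* (also called *Dax1*), an X-linked orphan nuclear receptor gene that binds POU5F1. In the PGK12.1 controls it had log2 values of 11.86, 11.77, 12.67 and 13.33. After RNAi it had 12.06, 12.08, 12.87 and 13.38, which is above the control by 0.20, 0.31, 0.20 and 0.05. The fitted change was 0.19 (95% interval 0.08 to 0.30, limma adjusted p = 0.0539), and without experiment 4 it was called (0.24, adjusted p = 0.0422).

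In the LIF pathway, *Lifr*, the LIF-binding receptor subunit, had control values of 9.10, 9.16, 9.24 and 10.81 and values of 9.22, 9.37, 9.42 and 10.94 after RNAi. Each experiment lay above its control, by 0.12 to 0.21, and the fitted change was 0.16 (95% interval 0.06 to 0.26, limma adjusted p = 0.0624). *Il6st*, the signalling subunit gp130, stood at -0.06 (adjusted p = 0.50). *Stat3*, the transcription factor that the receptor activates, had 9.48, 9.47, 9.95 and 11.47 in the controls and 9.50, 9.58, 9.96 and 11.52 after RNAi, a fitted change of 0.05 (95% interval -0.06 to 0.16, adjusted p = 0.611). *Socs3*, the feedback inhibitor that STAT3 induces, stood at 0.01 (adjusted p = 0.907), and its 2 probe sets gave opposite signs in all 6 experiments. Of the chromatin partners, *Zfp57*, which holds methylation at imprinted regions, stood at 0.07, its cofactor *Trim28* at -0.04, and *Rif1*, a replication timing factor, at -0.08 (adjusted p = 0.420, 0.551 and 0.333).

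**Figure D2:**
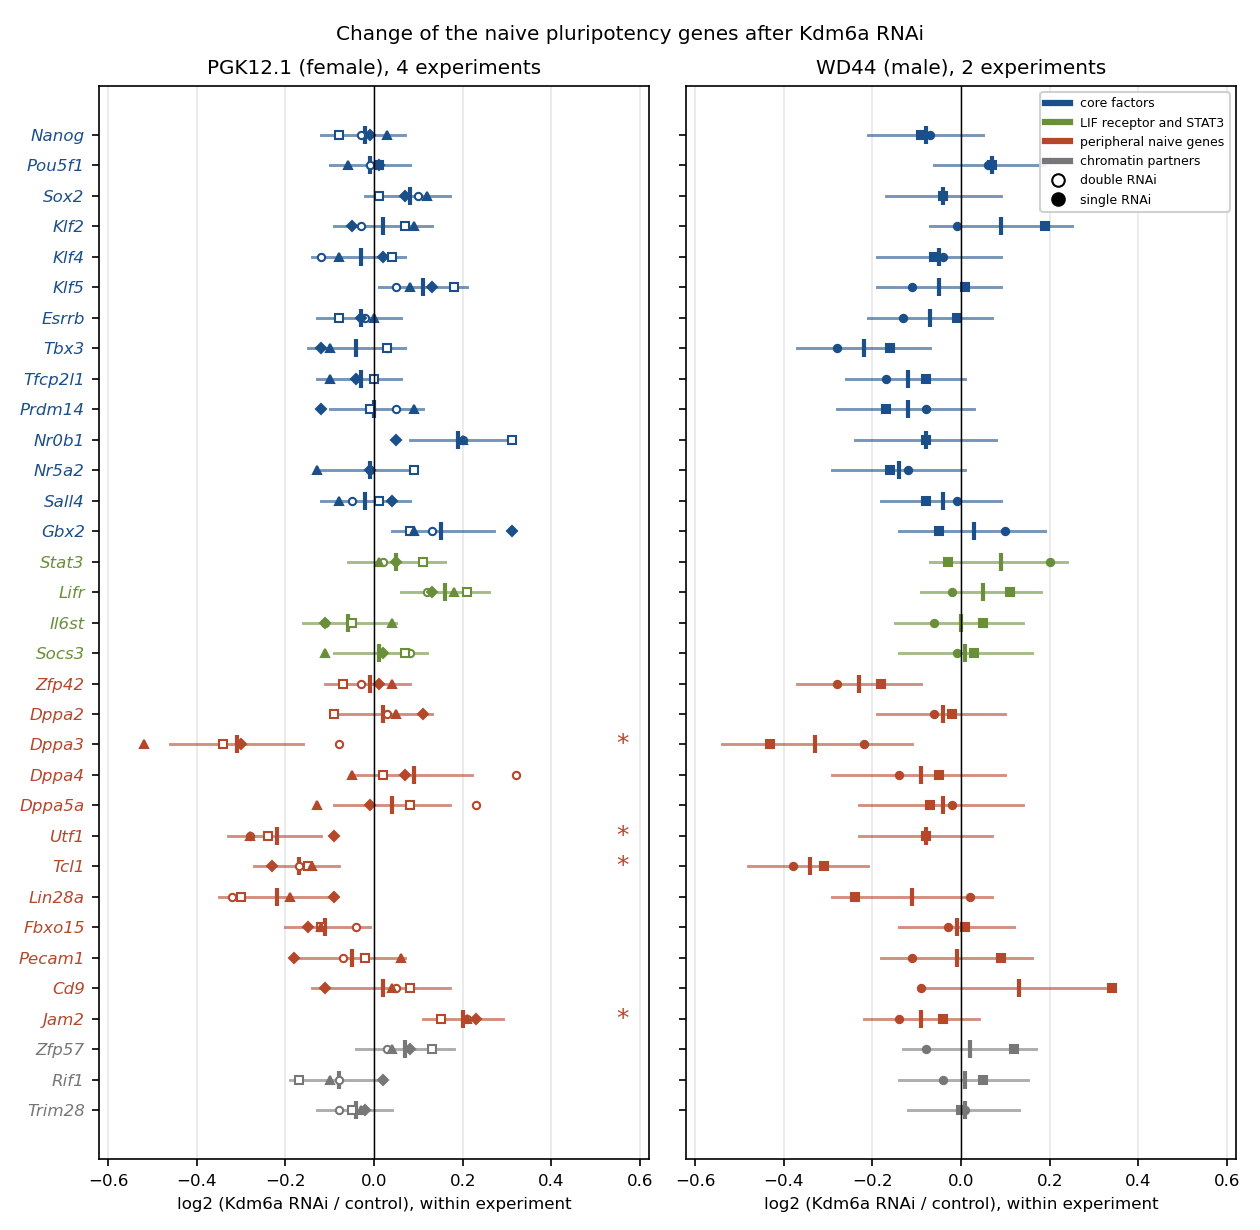
Change of the 33 measured genes (log2 *Kdm6a* RNAi over control, within experiment) in PGK12.1 (left) and WD44 (right). Symbols are single experiments (circle, square, triangle and diamond for experiments 1 to 4, open for double RNAi), vertical ticks are fitted changes, horizontal lines their 95% intervals, and an asterisk marks an adjusted p under 0.05. Asterisks stand in the left panel alone, at *Dppa3*, *Utf1*, *Tcl1* and *Jam2*, and most core factors lie within 0.1 of 0.

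Set side by side, the median absolute change in PGK12.1 was 0.0338 over the 14 core factors, 0.0975 over the 12 peripheral naive genes and 0.0625 over all genes tested. Without *Dppa3*, whose probe sets disagreed, the peripheral median was 0.0875. Signed medians were -0.01 for the core, -0.03 for the periphery and 0.01 for all genes. The changes of the core factors ran from -0.04 to 0.19 and those of the peripheral genes from -0.31 to 0.20, so the periphery reached further downwards, while the upper ends, *Nr0b1* and *Jam2*, lay within each other's intervals. Lying below the control in all 4 experiments was seen for 6 genes, none of them a core factor (*Dppa3* by the mean of its probe sets, *Utf1*, *Tcl1*, *Lin28a*, *Fbxo15* and *Trim28*), beside 10.6% of all genes tested. Lying above it in all 4 was seen for 8 genes, of which 4 were core factors (*Sox2*, *Klf5*, *Nr0b1* and *Gbx2*), beside 16.3% of all genes. In WD44 the median absolute change was 0.075 for the core factors, 0.0925 for the peripheral genes and 0.08 for all genes. The gap between core and periphery was thus narrower there than in PGK12.1.

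**Figure D3:**
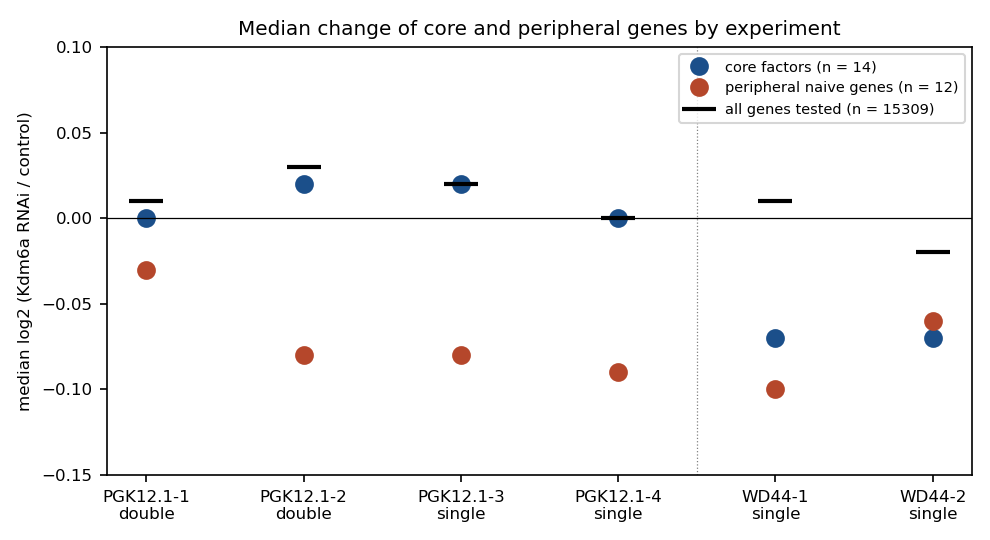
Median change (log2 *Kdm6a* RNAi over control) of the 14 core factors, the 12 peripheral naive genes and the 15309 genes tested, in each experiment. In PGK12.1 the core medians lay between 0.00 and 0.02 and the peripheral medians between -0.09 and -0.03, while in WD44 both were between -0.10 and -0.06.

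In WD44 no member was called. With 0 of the 15309 genes past the threshold in either direction, that is 0% in the background as well. At an unadjusted p under 0.05, 4 members were lower, 3 of the periphery (*Tcl1*, *Zfp42* and *Dppa3*) and the core factor *Tbx3*, and none was higher, against 7.23% and 8.84% of all genes. *Tcl1* had values of 9.89 and 9.64 in the WD44 controls and of 9.51 and 9.33 after RNAi. Both experiments lay below their control, at -0.38 and -0.31, and the fitted change was -0.34 (95% interval -0.48 to -0.21, limma adjusted p = 0.164). *Zfp42* had 9.78 and 9.74 in the controls and 9.50 and 9.56 after RNAi, a fitted change of -0.23 (95% interval -0.37 to -0.09, adjusted p = 0.177). *Dppa3* was at 9.96 in both controls and at 9.74 and 9.53 after RNAi, a fitted change of -0.33 (95% interval -0.54 to -0.11, adjusted p = 0.193). *Tbx3*, a T-box factor of the naive network, had 10.04 and 9.87 in the controls and 9.76 and 9.71 after RNAi (fitted change -0.22, adjusted p = 0.198). The spread behind these tests is shared by both lines and moderated over all genes (4 residual degrees of freedom, 5.66 prior). Each gene's own part of it comes mainly from the PGK12.1 experiments.

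The core trio in WD44 was again close to its controls. *Nanog* had 12.70 and 12.63 in the controls and 12.63 and 12.54 after RNAi, *Pou5f1* had 13.05 and 12.90 and then 13.11 and 12.97, and *Sox2* had 12.77 and 12.70 and then 12.73 and 12.66. The fitted changes were -0.08, 0.07 and -0.04 (adjusted p = 0.530, 0.609 and 0.781). *Klf4* had 10.54 and 10.41 in the controls and 10.50 and 10.35 after RNAi, *Esrrb* had 11.91 and 11.60 and then 11.78 and 11.59, and *Stat3* had 11.21 and 11.34 and then 11.41 and 11.31. Their fitted changes were -0.05, -0.07 and 0.09 (adjusted p = 0.742, 0.600 and 0.573).

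In WD44 more of the network lay below its control than above it. In both WD44 experiments 18 of the 33 genes were below their control, 10 of the core and 8 of the periphery, and *Pou5f1* was the only gene above it in both, beside 33.1% and 31.3% of all genes. The medians in experiments 1 and 2 were -0.07 and -0.07 for the core factors and -0.10 and -0.06 for the peripheral genes, against 0.01 and -0.02 for all genes. In the same arrays the fitted changes of 8 of the 10 tested fibroblast markers, which mark feeder cells, were above 0, with a median of 0.16. For this count and those that follow, the background is all 15309 genes tested. Of these, 50.6% were below 0 in WD44, with a median of 0.00. Summed over the 12 measured fibroblast markers, the level was 13.0 and 13.1 array means in the WD44 controls and between 13.0 and 14.2 after RNAi. The ratio was 0.992 in experiment 1 and 1.09 in experiment 2. This sum mostly follows *Fn1*, which averaged 6.13 array means over all arrays, against 1.18 for *Acta2*, the next brightest. *Fn1* changed by -0.10 and 0.07 in the 2 WD44 experiments. None of the markers is listed at 0, since RMA gives every probe set a value. Of the 6 tested neuroectoderm markers 4 were above 0 in WD44 as well, with a median of 0.13 (*Neurog2* at 0.31 and *Sox1* at 0.21, adjusted p = 0.164 and 0.198) and summed levels at 1.10 and 0.993 of the control in experiments 1 and 2. For primitive endoderm the median was 0.04 (6 of 10 above 0, summed ratios 1.02 and 1.04). Its *Col4a1* stood at 0.23 and *Foxa2* at 0.21 (limma adjusted p = 0.181 and 0.259). For trophoblast the median was 0.03 (4 of 7 above 0, summed ratios 0.964 and 0.992). *Neurog2* and *Foxa2* were dim, averaging 0.149 and 0.2335 of the array mean over all arrays, against the filter at 0.1. Other markers stood below 0, among them *Eomes* and *Ascl2* of trophoblast at -0.21 and -0.18 and *Pax6* of neuroectoderm at -0.14 (limma adjusted p = 0.206, 0.335 and 0.414). Of the 17 tested primed genes 8 were above 0 in WD44, with a median of -0.01. They ran from -0.15 for *Dnmt3a* to 0.28 for *Cdh2* (limma adjusted p = 0.371 and 0.195), with *Krt18*, a keratin gene, at 0.27 (adjusted p = 0.164). The part of these markers in the lower values of the network was not tested, and in these bulk samples fewer cells of a kind and less RNA per cell cannot be told apart.

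Whether the response differed between the lines was tested by the difference of the changes. The PGK12.1 change averages double and single RNAi, whereas WD44 had single RNAi only. Line is therefore mixed with the dose and time of RNAi in this difference. *Kdm6a* itself changed by -1.29 in PGK12.1 and by -0.93 in WD44. No member was called, nor was any of the 15309 genes (0% lower and 0% higher). At an unadjusted p under 0.05, 4 members had a higher value in PGK12.1 (*Jam2*, *Nr0b1*, *Zfp42* and *Tcl1*) and none a lower one, beside 11.0% and 10.0% of all genes. *Jam2* had 11.17 and 11.19 in the WD44 controls and 11.03 and 11.15 after RNAi, opposite in sign to all 4 PGK12.1 experiments, and the difference was 0.29 (95% interval 0.13 to 0.45, limma adjusted p = 0.0972). *Nr0b1* had 13.04 and 12.93 in the controls and 12.96 and 12.85 after RNAi, and a difference of 0.27 (95% interval 0.08 to 0.46, adjusted p = 0.127). Its PGK12.1 change was 0.26 with double RNAi only and 0.13 with single RNAi only. *Sox2* also lay above its control in all PGK12.1 experiments and below it in both of WD44, a pattern held by 3 of the 33 genes and 5.96% of all genes. *Dppa3* and *Tcl1* were below their control in all 6 experiments, as was *Utf1* (13.76 and 13.75 in the WD44 controls, 13.68 and 13.67 after RNAi), which makes 3 of 33 genes beside 3.93% of all genes. The difference between the lines was 0.02 for *Dppa3* (95% interval -0.25 to 0.28), 0.17 for *Tcl1* (0.01 to 0.33, adjusted p = 0.211) and -0.14 for *Utf1* (-0.32 to 0.04).

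The double and single RNAi experiments of PGK12.1 did not differ past the threshold for any member or any gene tested (0% lower and 0% higher). At an unadjusted p under 0.05 only *Dppa5a* was higher under double RNAi and none was lower, beside 4.78% and 4.10% of all genes. *Dppa5a* had control values of 12.65, 12.58, 13.75 and 14.11 and values of 12.88, 12.66, 13.62 and 14.10 after RNAi, above the control under double RNAi and below it under single RNAi (difference 0.23, adjusted p = 0.531). For *Dppa3*, *Utf1*, *Tcl1* and *Jam2* the differences were 0.20, -0.07, 0.03 and -0.04, with intervals that all include 0. The number of rounds, the time of harvest and the array set change together here and cannot be told apart.

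The control arrays also show how the network stands in the 2 lines before *Kdm6a* is targeted. Levels are given as linear value over array mean, and no test was made, because the arrays differ in scale and 4 controls against 2 could at best give an exact two-sided p of 0.133. In 17 of the 33 genes all PGK12.1 controls lay above both WD44 controls, 9 of the core and 7 of the periphery among them, and in 5 all lay below, whereas among all genes tested 13.8% lay above and 28.4% below. By percentile rank within the array the counts were 20 above and 3 below, beside 26.4% and 24.7%. These shares cover all genes from 0.1 of the array mean upwards. They were not matched for level to the members, the lowest of which averaged 0.511. *Zfp42* had 3.88, 3.84, 4.64 and 2.22 in PGK12.1 and 0.752 and 0.740 in WD44, a 4.88-fold higher mean. *Tcl1* had 2.39, 2.34, 2.72 and 5.06 against 0.811 and 0.690 (4.16-fold), *Tbx3* had 3.11, 2.91, 2.52 and 3.53 against 0.900 and 0.809 (3.53-fold), and *Prdm14*, a repressor of DNA methyltransferase genes, had 0.695, 0.752, 0.942 and 1.16 against 0.283 and 0.269 (3.21-fold). Against WD44, PGK12.1 experiment 4, whose array scale is near that of WD44, had 2.97-fold, 6.73-fold, 4.12-fold and 4.19-fold the level of these genes in turn.

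*Klf2*, *Klf4*, *Nanog*, *Jam2*, *Fbxo15* and *Cd9* had PGK12.1 means 2.02 to 2.66 times those of WD44, again with no overlap. In experiment 4 alone *Cd9* was at 1.23-fold, against 2.66-fold for the mean, and the other 5 were between 1.64-fold and 3.13-fold. The levels of *Pou5f1* (8.74 to 11.9 against 6.61 and 7.25) and *Sox2* (6.63 to 11.2 against 5.97 and 5.75) differed less, with means 1.58-fold and 1.45-fold higher in PGK12.1 (1.26-fold and 1.13-fold in experiment 4 alone). The 5 genes with lower levels in PGK12.1 were *Lin28a* (1.81 to 2.02 against 3.14 and 3.28), *Utf1* (9.05 to 9.60 against 11.9 in both), *Sall4*, *Gbx2* and *Dppa3*, and by rank the last 2 overlapped. Of the genes called after *Kdm6a* RNAi in PGK12.1, *Tcl1* and *Jam2* were thus higher in the PGK12.1 controls and *Utf1* and *Dppa3* lower.

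**Figure D4:**
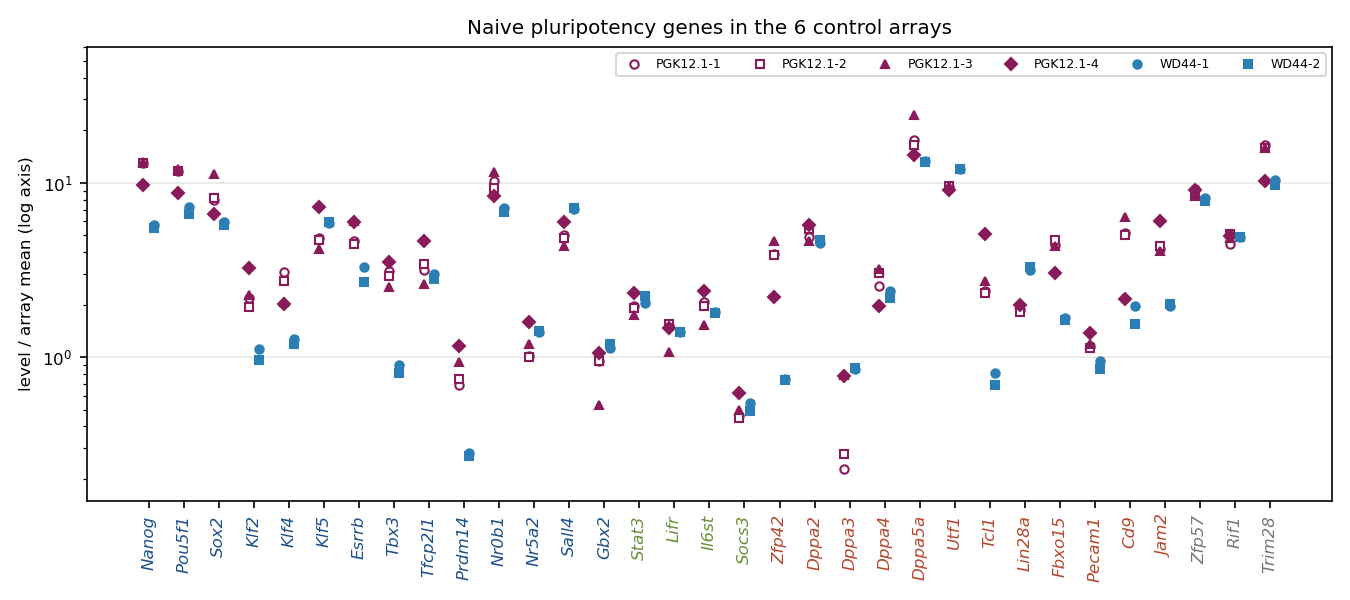
Level of the 33 measured genes in the 6 control arrays, as linear value over array mean on a log axis, with PGK12.1 in purple (open symbols for experiments 1 and 2) and WD44 in blue. Gene names are coloured by role as in the plot of changes. *Zfp42*, *Tcl1*, *Tbx3* and *Prdm14* show the widest gaps between the lines, and the levels of different genes are not comparable because probe sets differ in brightness.

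Other genes of the pathway and of neighbouring states were examined through further lists. Of 27 tested genes of the extended network, 1 was lower and 2 were higher in PGK12.1, beside the 2.10% and 3.71% of all genes. *Spic*, an ETS factor gene expressed in ground-state cells, had control values of 6.01, 6.25, 7.24 and 8.75 and values of 5.55, 5.66, 6.69 and 8.04 after RNAi. It fell by 0.58 (limma adjusted p = 0.00252). Its signal was dim, averaging 0.167 of the array mean over all arrays, near the filter at 0.1. *Morc1*, a germ-line ATPase gene that silences transposons, rose by 0.36 and *Mras*, a small GTPase gene, by 0.35 (adjusted p = 0.00432 and 0.00592). In WD44 *Spic* stood at -0.23 and -0.67 in the 2 experiments, and *Morc1* and *Mras* between -0.01 and 0.04. None of the 19 tested LIF pathway genes was called, and those with the smallest p were *Socs2*, a feedback inhibitor, at 0.15 and the kinase *Jak1* at 0.21 (adjusted p = 0.0616 and 0.0654).

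Of 17 tested genes of the primed state, 1 was lower and 2 were higher in PGK12.1, again beside 2.10% and 3.71% of all genes. *Cldn6*, a claudin gene of early epithelia, fell by 0.58 (adjusted p = 0.000444), with changes of -0.53 to -0.65. *Cdh2*, N-cadherin, rose by 0.38 and *Lef1*, a WNT effector, by 0.41 (adjusted p = 0.00690 and 0.0280). The median over the list was 0.01, as it was over all genes. Of the markers of other lineages, *Lamb1* of primitive endoderm and *Ascl2* of trophoblast fell by 0.26 and 0.34 (adjusted p = 0.0156 and 0.0140), each the only call among the 10 and 7 genes tested. No fibroblast marker (10 tested; *Thy1* and *Col1a1* had the smallest p, at -0.17 and -0.09) and no neuroectoderm marker (6 tested; *Neurog2* and *Nes*, at -0.10 each) was called. In PGK12.1 the fibroblast markers summed to between 5.68 and 11.8 array means in the controls and between 5.52 and 11.3 after RNAi, with ratios of 0.950 to 0.971 within experiments. Here too the sum mostly follows *Fn1*, which changed by 0.00, -0.08, -0.09 and -0.12.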

How the data were processed

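Expression in PGK12.1 and WD44 cells was read from 12 arrays (Affymetrix Mouse Gene 1.0 ST). The log2 values were deposited by the authors after RMA in Affymetrix Expression Console, of unstated version, and the sources used here do not say which arrays were normalized as a set. Of 35556 probe sets, 21789 had 1 gene symbol, and genes with several such probe sets (4 members) got their mean. Changes were fitted with limma 3.58.1 in R 4.3.3, with the experiment as a block and a coefficient per line (4 residual degrees of freedom, 5.66 prior), and adjusted by the Benjamini-Hochberg method over 15309 genes at a threshold of 0.05. The block follows the experiment numbers of the labels and the paired tests of the study's methods. Deviations of paired arrays from their group means correlated at 0.828 to 0.972 in PGK12.1, where array scale adds to it, and at 0.265 in WD44. The study calls its array experiments independent and does not say in the sources used here whether these were separate cultures, so p-values measure the spread between experiments, and the number of arrays limits precision. The script was tested on simulated data. Members and lists were chosen with earlier results of these data known. Named were all members, with every array for those called and for 7 leading genes, and up to 4 called genes (otherwise 2) per other list. In WD44, further list genes were named as examples. Alternatives changed the filter, block, scaling, probe set rule, moderation or experiments used, or applied the methods' paired t-test.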

Additional observations from a re-analysis of the deposited data

How the results depend on the processing

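In PGK12.1, 3 members were called lower and 1 higher. No member was called in either direction without a minimum level, with single or double RNAi only, by the methods' paired t-test after Benjamini-Hochberg adjustment (unadjusted, 6 were lower and 4 higher at its threshold), or without the replicate block, a fit in which no gene of any kind was called. With each line by itself 0 were lower and *Jam2* stayed. Leaving out each replicate in turn gave 0 to 1 lower and 0 to 1 higher. With a minimum level of 0.25, 4 were lower and 3 higher, with arrays centred on their median 4 and 2, and with quantile normalization 4 and 1. With the trend and robust options 5 were lower and 4 higher in PGK12.1, *Tcl1* alone was lower in WD44 (-0.34, adjusted p = 0.0216) and 2 members, *Jam2* and *Nr0b1*, differed between the lines. The core factor *Nr0b1* was among the higher PGK12.1 calls at a minimum level of 0.25, with median centring, and with the trend and robust options. *Klf5*, also a core factor, was called higher with the trend and robust options alone. Over all genes, the PGK12.1 counts of 322 lower and 568 higher became 182 and 270 without a minimum level, 546 and 1101 with the trend and robust options, 58 and 43 with single and 65 and 117 with double RNAi only, 205 and 332 with each line by itself, 0 and 0 by the paired t-test, and 439 and 926 at a minimum level of 0.25. The median change of the core factors in PGK12.1 (-0.01) was -0.03 after quantile normalization, 0.02 with double RNAi only and -0.01 to 0.00 when leaving out each replicate, and in WD44 (-0.06) it was -0.07 after quantile normalization and -0.07 to -0.06 when leaving out each replicate. The peripheral median in PGK12.1 (-0.03) was -0.06 with single RNAi only and -0.06 to -0.01 when leaving out each replicate. No value with a call changed sign under any alternative run. No set of 4 PGK12.1 experiments had a member value far enough from the others to stand out (33 sets examined). The call of each of the 4 genes, and the lack of one for *Lin28a*, *Fbxo15*, *Nr0b1*, *Klf5* and *Lifr*, thus depended on the setting, and the cause was not tested.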
